A study of Rattus norvegicus with 6 samples.

Results

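The renin-angiotensin system was followed through 9 genes, found by symbol in the deposited table. They were the precursor gene Agt, the peptidase genes Ace, Prcp, Enpep and Anpep, and the receptor genes Agtr1a, Agtr1b, Agtr2 and Mas1. All 9 were present, each under 1 identifier, out of 23802 genes in the table. In this system angiotensinogen is cut to angiotensin I, and angiotensin-converting enzyme (ACE), which sits on the surface of endothelial cells and is especially abundant in the lung, turns it into the vasoconstrictor angiotensin II. Other peptidases shorten angiotensin II further, some of them to peptides that dilate vessels. The type 1 receptor carries the constrictor and growth-promoting actions, while the type 2 receptor and Mas, the receptor of a shorter peptide, mostly oppose them.

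The samples were lungs of wild-type male Sprague-Dawley rats of 200 to 250 g, profiled by RNA-seq of polyA RNA in 2 groups of 3. The control group received saline, and the MCT group 1 injection of 60 mg/kg monocrotaline, a plant toxin that injures the vessels of the lung and raises pulmonary pressure, with lungs taken after 4 weeks. The labels give the route of monocrotaline as intraperitoneal in one place and subcutaneous in another, and saline as subcutaneous. They do not say whether each sample is 1 animal, so each p-value reflects only how far these samples spread, and that spread may be technical. In whole tissue, fewer cells of a type and less RNA per cell cannot be told apart.

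Summed counts ran from 13525886 to 17916115 per sample. The tissue label was matched by its defining markers: the 7 alveolar type 2 genes summed to 15273 to 28138 CPM (counts scaled to the library total) per sample, while of 6 heart muscle genes 1 had no count at all and the rest summed to 4.88 to 19.6 CPM. MCT replicate 1 stood apart in inflammatory cells. Its 6 neutrophil genes summed to 595 CPM, against 71.0 and 51.1 CPM in MCT replicates 2 and 3 and 32.8 to 61.7 CPM in controls.

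The comparison asked which of the 9 genes differed between MCT and control lungs. Enpep and Ace fell, Agtr1a and Prcp rose, and Agt and Anpep did not pass the test. These were the 6 members that had enough counts to be tested; Agtr1b, Agtr2 and Mas1 were too low. Of the 6 tested, 2 were called higher and 2 lower at a Benjamini-Hochberg adjusted p under 0.05 in edgeR's quasi-likelihood test, where 8.01% of all 15250 tested genes were called higher and 5.11% lower. Control and MCT values were fully separate for 4 of the 6, against 35.4% of all tested genes. The median log2 fold change was -0.31 over the 6 tested members and -0.01 over all tested genes. Levels in one gene across samples are given as CPM after TMM scaling, and levels between genes as FPKM, which divides by gene length. Where 3 values are given for a group, they are in the order of replicates 1, 2 and 3.

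**Figure D1:**
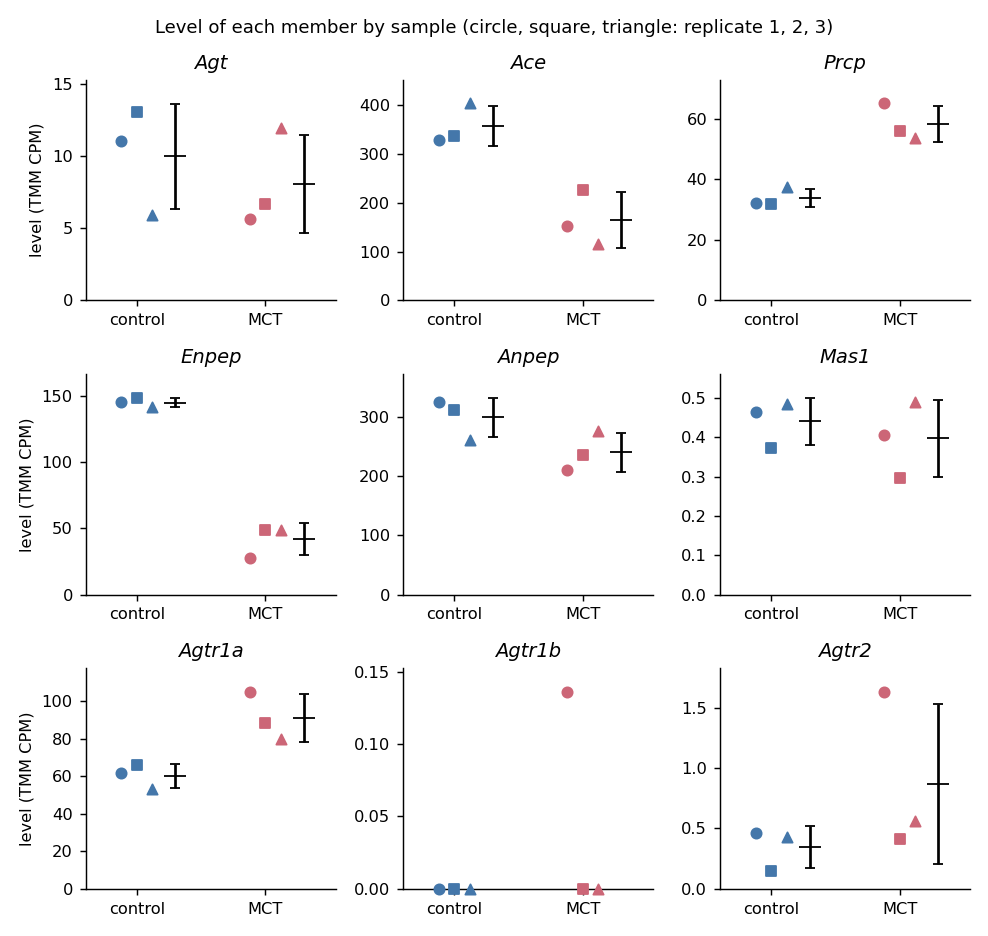
Level of each of the 9 genes in each sample, in TMM-scaled CPM on linear axes that start at 0 and differ between panels; circles, squares and triangles are replicates 1, 2 and 3, and the bar is the mean with its SD (n = 3; not drawn for Agtr1b, which had 2 counts in all). Ace and Enpep lie lower in every MCT sample than in any control, Agtr1a and Prcp lie higher, and the other panels overlap.

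Agt (ENSRNOG00000018445) encodes angiotensinogen, the only known source of the angiotensins, most of which is made in liver. It stood at 11, 13 and 5.93 CPM with saline against 5.63, 6.64 and 11.9 CPM after monocrotaline. The groups overlapped, with 1 sample of each group on the far side of the others. Agt was not called (log2 fold change -0.31, SE 0.36, edgeR adjusted p = 0.62), and the adjusted p lay between 0.27 and 0.941 over 16 other ways of processing. The 4 liver markers summed to 18.6 to 37.8 CPM with saline and to 27.5, 3.67 and 1.68 CPM after monocrotaline, mostly from Serpina1, while Alb, the albumin gene, had at most 1 count per sample. Their part in the Agt values was not tested.

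Ace (ENSRNOG00000062101) encodes the converting enzyme, which also destroys bradykinin. It stood at 328, 337 and 403 CPM with saline against 153, 226 and 115 CPM after monocrotaline. Every MCT sample lay below every control, and the MCT samples spread more widely. The mean went from 356 ± 41.1 to 165 ± 56.4 CPM (SD, n = 3), a 2.16-fold fall (log2 fold change -1.11, SE 0.23, edgeR adjusted p = 0.0185). The fall kept its direction in all 16 alternatives (-1.41 to -0.90), but 3 omissions ended the call: control replicate 2 gave an adjusted p of 0.0582, control replicate 3 one of 0.0737 and MCT replicate 1 one of 0.0573.

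Among the peptidases that act on the angiotensins after ACE, Enpep (ENSRNOG00000051854) showed the largest difference of the 6 tested members. It encodes aminopeptidase A, which takes the first residue off angiotensin II. The level was 145, 148 and 141 CPM with saline against 27.8, 48.8 and 48.8 CPM after monocrotaline. Controls were almost alike, and the highest MCT sample was far below the lowest control. Enpep fell 3.46-fold (log2 fold change -1.79, SE 0.21, edgeR adjusted p = 0.00206), and it was called in all 16 alternatives, with log2 fold changes of -1.92 to -1.56.

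Anpep (ENSRNOG00000014610), the gene of aminopeptidase N, acts on the product of aminopeptidase A and on many other small peptides. It stood at 325, 311 and 261 CPM in controls and at 211, 235 and 276 CPM in MCT samples, in order of replicate. MCT replicate 3 lay above control replicate 3, so the groups overlapped. Anpep was not called (log2 fold change -0.32, SE 0.15, edgeR adjusted p = 0.192), nor in any of the 16 alternatives (adjusted p = 0.148 to 0.436). The closely related Enpep and Anpep thus had different values under the same contrast, but the difference between them was not tested.

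Prcp (ENSRNOG00000010630) encodes prolylcarboxypeptidase, a lysosomal enzyme that removes the last residue of angiotensin II and so yields the peptide that acts on Mas. It stood at 32.1, 31.9 and 37.3 CPM with saline against 65, 56 and 53.7 CPM after monocrotaline. The groups were well apart and each was tight. Prcp rose 1.72-fold (log2 fold change 0.79, SE 0.13, edgeR adjusted p = 0.0079), and like Enpep it was called in all 16 alternatives (0.70 to 0.87).

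Among receptors, Agtr1a was by far the most abundant. Rats carry 2 genes for the type 1 receptor, Agtr1a and Agtr1b, whose coding sequences are much alike, which leaves the assignment of reads between them uncertain. Agtr1a (ENSRNOG00000018346) stood at 61.5, 65.8 and 53.5 CPM with saline against 105, 88.4 and 80.1 CPM after monocrotaline. All MCT samples were above all controls. Agtr1a rose 1.51-fold, from 60.2 ± 6.23 to 91.1 ± 12.6 CPM (SD, n = 3; log2 fold change 0.60, SE 0.14, edgeR adjusted p = 0.0262). This call was the least steady of the 4: omitting control replicate 1, 2 or 3 gave an adjusted p of 0.0565, 0.0577 or 0.105, and omitting MCT replicate 1 gave 0.0785, with the direction kept in all 16 alternatives (0.49 to 0.69).

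The other receptor transcripts were near the limit of detection. Agtr1b (ENSRNOG00000010640) had 0 counts in the controls, which allows up to 0.0638 CPM (3 counts over the group, counting error only), and 2 counts in MCT, both in replicate 1. Agtr2 (ENSRNOG00000050006), the type 2 receptor gene, had 7, 2 and 8 counts with saline and 24, 7 and 8 after monocrotaline. MCT replicate 1 alone was high. That replicate also had the highest sums of neutrophil, mast cell, macrophage and smooth muscle markers, and the lowest sum of endothelial markers. What part any of these had in the Agtr2 value was not tested. Mas1 (ENSRNOG00000014971) had 7, 5 and 9 counts in controls and 6, 5 and 7 in MCT samples, with no sample apart. With no filter on low counts the adjusted p was 0.477 for Agtr1b, 0.303 for Agtr2 and 0.891 for Mas1 (edgeR). No difference was detected in these 3 genes, and their low counts limit what can be seen.

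**Figure D2:**
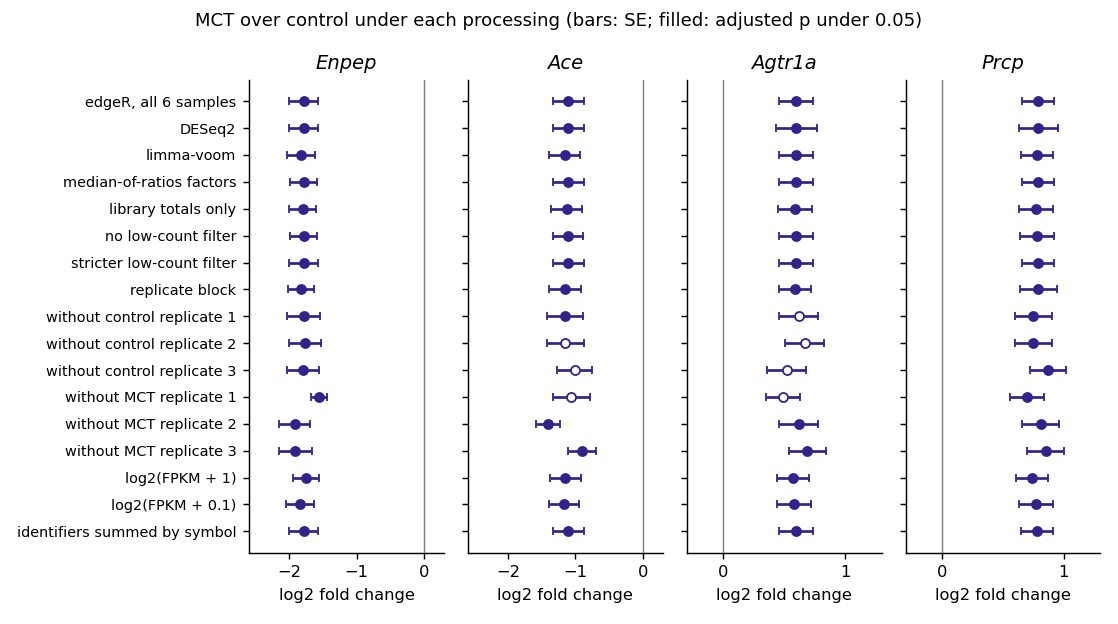
Log2 fold change, MCT over control, of the 4 called members under the edgeR test of all 6 samples and 16 alternatives, with its SE; filled points have an adjusted p under 0.05. Enpep and Prcp are filled throughout, Ace is open in 3 settings and Agtr1a in 4, each with 1 sample left out.

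Set in order of level per length, the controls ran from Ace at 104 ± 15.2 FPKM, through Anpep (77.7 ± 6.6), Enpep (38.2 ± 0.701), Agtr1a (27.6 ± 2.27) and Prcp (14.4 ± 1.73), to Agt at 5.15 ± 1.79 FPKM (SD, n = 3). No 2 neighbours among these 6 overlapped in the control samples. Mas1 followed at 0.223 FPKM, Agtr2 at 0.117 FPKM, and Agtr1b was listed at 0. In MCT lungs the order was Anpep (62.2 ± 8.41 FPKM), Ace (47.9 ± 16), Agtr1a (41.6 ± 6.06), Prcp (24.6 ± 2.71), Enpep (10.9 ± 3.1) and Agt (4.15 ± 1.74). Ace there overlapped both Anpep above it and Agtr1a below it. Enpep moved from the third place to the fifth: it exceeded Agtr1a and Prcp in every control and lay below both in every MCT sample.

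**Figure D3:**
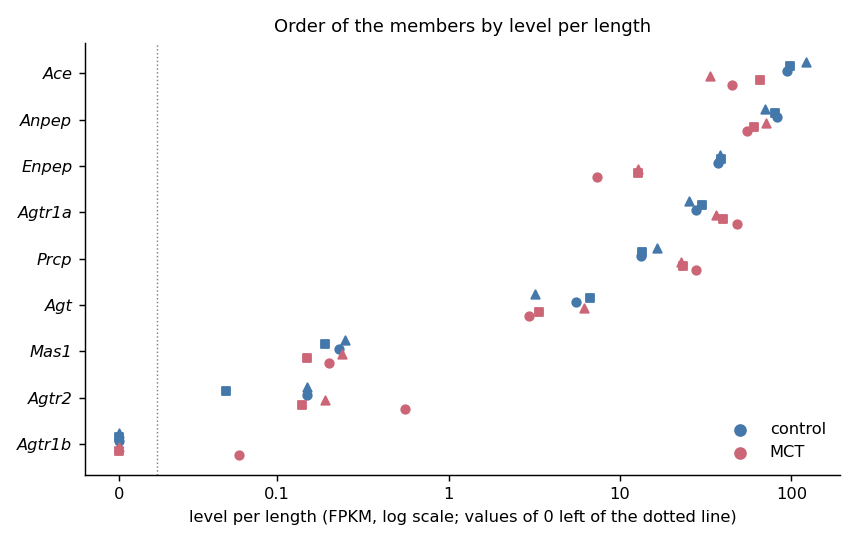
FPKM of the 9 genes in each sample on a log axis, ordered by the control mean; circles, squares and triangles are replicates 1, 2 and 3, and values of 0 are drawn left of the dotted line. The 6 tested genes lie at or above 2.93 FPKM in every sample and the other receptors at or below 0.56 FPKM.

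Some pairs of members are given here as FPKM ratios within a sample and without a test. Where 1 gene rose and the other fell without overlap, as for Agtr1a and Ace, separate ratios follow from those values. Agtr1a over Ace was 0.294, 0.306 and 0.208 in controls and 1.08, 0.613 and 1.09 in MCT samples, in order of replicate, so in MCT replicates 1 and 3 the receptor transcript exceeded that of the enzyme. Enpep over Anpep was 0.451 to 0.547 in controls and 0.134 to 0.211 in MCT samples, again without overlap. Ace over Anpep was 1.14 to 1.74 in controls and 0.469 to 1.08 in MCT samples, also separate. Ace over Enpep overlapped, at 2.52 to 3.17 in controls and 2.62 to 6.09 in MCT samples.

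Promoter sequences are shown for the 4 called members and for Agtr1b, the nearly silent copy of Agtr1a. They are the 250 bases before the annotated start, 5′ to 3′ on the gene's strand, from RefSeq on build GRCr8, which is not the build of the deposited table. Of the 9 members 8 matched the promoter table; Agt did not. Capitals mark GGGCGG (the GC box), TATAAA (the TATA box) and CCAAT, each on either strand, with overlaps counted.

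Ace, chr10:91409879-91410128, + strand: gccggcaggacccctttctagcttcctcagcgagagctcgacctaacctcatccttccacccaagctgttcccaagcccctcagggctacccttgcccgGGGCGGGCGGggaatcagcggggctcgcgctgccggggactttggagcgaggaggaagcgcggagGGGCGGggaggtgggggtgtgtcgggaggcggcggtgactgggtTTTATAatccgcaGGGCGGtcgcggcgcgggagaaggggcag
Enpep, chr2:220526219-220526468, - strand: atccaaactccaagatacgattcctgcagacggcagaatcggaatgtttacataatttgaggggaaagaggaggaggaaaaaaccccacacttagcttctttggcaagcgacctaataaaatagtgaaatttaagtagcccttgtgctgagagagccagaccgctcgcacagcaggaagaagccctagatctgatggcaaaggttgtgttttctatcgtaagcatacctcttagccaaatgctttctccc
Agtr1a, chr17:34435433-34435682, - strand: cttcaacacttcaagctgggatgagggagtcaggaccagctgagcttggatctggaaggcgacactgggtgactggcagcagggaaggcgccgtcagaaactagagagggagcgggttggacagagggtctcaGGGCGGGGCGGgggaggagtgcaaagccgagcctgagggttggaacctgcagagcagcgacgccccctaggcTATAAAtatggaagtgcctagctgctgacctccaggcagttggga
Agtr1b, chr2:104849263-104849512, - strand: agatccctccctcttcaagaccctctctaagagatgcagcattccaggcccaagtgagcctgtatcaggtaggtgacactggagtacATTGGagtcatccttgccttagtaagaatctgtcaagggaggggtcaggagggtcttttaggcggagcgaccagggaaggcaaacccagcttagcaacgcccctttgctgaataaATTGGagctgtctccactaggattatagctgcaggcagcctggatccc
Prcp, chr1:156343644-156343893, + strand: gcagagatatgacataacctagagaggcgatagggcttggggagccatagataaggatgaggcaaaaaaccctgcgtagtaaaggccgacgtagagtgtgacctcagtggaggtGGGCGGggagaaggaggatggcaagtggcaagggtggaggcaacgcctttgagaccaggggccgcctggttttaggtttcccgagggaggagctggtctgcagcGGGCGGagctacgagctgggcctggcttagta

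Ace held 4 copies of GGGCGG, 2 of them overlapping, and 1 TATAAA on the other strand, starting 42 bases before the start, while Enpep held none of the 3 motifs. Agtr1a held 2 overlapping copies of GGGCGG and 1 TATAAA starting 45 bases before the start. Prcp held 2 copies of GGGCGG and no TATAAA, and Agtr1b held 2 copies of CCAAT alone. Of 33469 promoters in the table, 30.5% held GGGCGG, 12.9% TATAAA and 34% CCAAT in the same window. GC content was 69.2% for Ace, 45.2% for Enpep, 60.8% for Agtr1a, 58.4% for Prcp and 52.8% for Agtr1b, against a median of 51.2% over all promoters. A match is a description of the letters and no evidence of binding.

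Markers of the cell types that could carry these transcripts were set beside the members. The most abundant gene of a marker list is here the one with the highest mean CPM over the 6 samples, without division by gene length. By FPKM another gene was higher in the pericyte, fibroblast and macrophage lists. Of 10 endothelial genes 5 were called lower and 0 higher (edgeR, adjusted p under 0.05; 6 lower and 0 higher at an unadjusted p under 0.05), and their sum was 3940 to 4420 CPM with saline against 1782, 3291 and 2203 CPM after monocrotaline. Of 10 capillary endothelial genes 5 were lower and 0 higher, with sums of 2546 to 2765 CPM in controls and 1311 to 1855 CPM in MCT samples; no gene of either list was at 0 in every sample. Cldn5, a tight junction gene and the most abundant of the endothelial list, gave -0.37 on the log2 scale without a call (adjusted p = 0.306), and Plvap, a gene of fenestrated endothelium and the most abundant of the capillary list, fell by 1.45 (log2; adjusted p = 0.0119). Ace per 100 CPM of endothelial markers was 7.43, 7.8 and 10.2 in controls and 8.57, 6.87 and 5.23 in MCT samples, so on this scale the groups overlapped. Per 100 CPM of capillary markers the groups only just overlapped, at 12.9, 12.2 and 15.1 in controls and 11.6, 12.2 and 8.35 in MCT samples. Replicate 2 of each group was alike at this precision, and MCT replicates 1 and 3 lay below every control. The endothelial genes did not move alike: Calcrl and Tek fell by 2.11 and 2.38 (log2; adjusted p = 0.00112 and 0.00246), while Pecam1 and Vwf were not called (log2 fold change 0.17 and 0.00, adjusted p = 0.76 and 0.997). Relative to Pecam1, an adhesion molecule gene of the endothelial list, Ace did not overlap between the groups. The CPM ratios were 1.21, 1.09 and 1.84 in controls and 0.871, 0.507 and 0.423 in MCT samples. Whether Pecam1 reads came from endothelium alone was not tested. Relative to Cdh5, the gene of an endothelial cadherin, the ratios overlapped, at 0.69 to 1.02 against 0.509 to 0.785. The part of endothelial transcripts in the fall of Ace was not tested further.

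Enpep fell further than either endothelial sum, but not further than every gene in them. Gpihbp1, Tek, Calcrl and Tmem100 had log2 fold changes of -2.92, -2.38, -2.11 and -2.0, against -1.79 for Enpep. The remaining genes of both lists fell less than Enpep or did not fall. Enpep stood at 3.28 to 3.58 per 100 CPM of endothelial markers in controls and 1.48 to 2.22 in MCT samples. None of 8 pericyte genes was called in either direction by edgeR, nor had any an unadjusted p under 0.05, and their sum was 339 to 365 CPM in controls and 351 to 393 CPM in MCT samples. For Pdgfrb, the most abundant of them, the log2 value was 0.12 (adjusted p = 0.565). Enpep per 100 CPM of pericyte markers was 42.6, 40.6 and 41.7 in controls and 7.91, 12.4 and 13.5 in MCT samples, again without overlap. Markers of mesothelium, the cell layer that covers the lung, fell along with Enpep: 4 of 5 were called lower and 0 higher by edgeR, and their sum was 99.7 to 116 CPM in controls and 17.1 to 25.7 CPM in MCT samples. Msln, the most abundant, fell by 2.11 (log2; adjusted p = 0.00249), and none of the 5 was at 0 in any sample. Mesothelium was not the only other list to fall without overlap. The alveolar type 2 sum was 25920 to 28138 CPM in controls and 15273 to 24655 CPM in MCT samples. The sum of T and NK cell markers was 93.8 to 150 CPM in controls and 66.8 to 88.4 CPM in MCT samples. No ratio of Enpep to the mesothelial sum was taken. The part of mesothelial or of these other transcripts in the fall of Enpep was not tested.

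Agtr1a rose beside smooth muscle genes. Of 8 smooth muscle genes 5 were called higher and 0 lower (edgeR), and their sum was 910 to 1059 CPM in controls and 1238 to 1873 CPM in MCT samples. The most abundant, Tagln, missed the threshold (log2 fold change 0.59, adjusted p = 0.0541). Agtr1a per 100 CPM of smooth muscle markers overlapped between the groups, at 5.29 to 7.23 in controls and 4.52 to 7.14 in MCT samples. Per 100 CPM of pericyte markers it did not overlap, at 15.8 to 18.1 against 22.2 to 29.9. Of 9 fibroblast genes 1 was higher and 2 were lower; the 1 was Col1a1, a collagen gene and the most abundant (2.16-fold, adjusted p = 0.00336). The fibroblast sum was 1054 to 1109 CPM in controls and 1253 to 1365 CPM in MCT samples, without overlap, and Agtr1a per 100 CPM of it overlapped, at 5.08 to 5.93 against 5.87 to 8.05. Col1a1 weighed heavily in this sum, at 216, 232 and 198 CPM in controls and 477, 393 and 523 CPM in MCT samples. The median log2 fold change of the 9 fibroblast genes was -0.17. Neither the sum nor the ratio was computed without Col1a1. Prcp rose beside macrophage genes, of which 6 of 7 tested were higher and 0 lower, with sums of 418 to 515 CPM in controls and 872 to 1226 CPM in MCT samples; Mrc1, the most abundant, rose by 1.15 (log2; adjusted p = 0.00721), and Marco, the eighth, had no count in controls. Prcp per 100 CPM of macrophage markers was 6.23, 7.63 and 8.35 in controls and 5.3, 6.42 and 6.15 in MCT samples, with overlap. What part smooth muscle, fibroblast and macrophage transcripts had in the values of Agtr1a and Prcp was not tested.

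**Figure D4:**
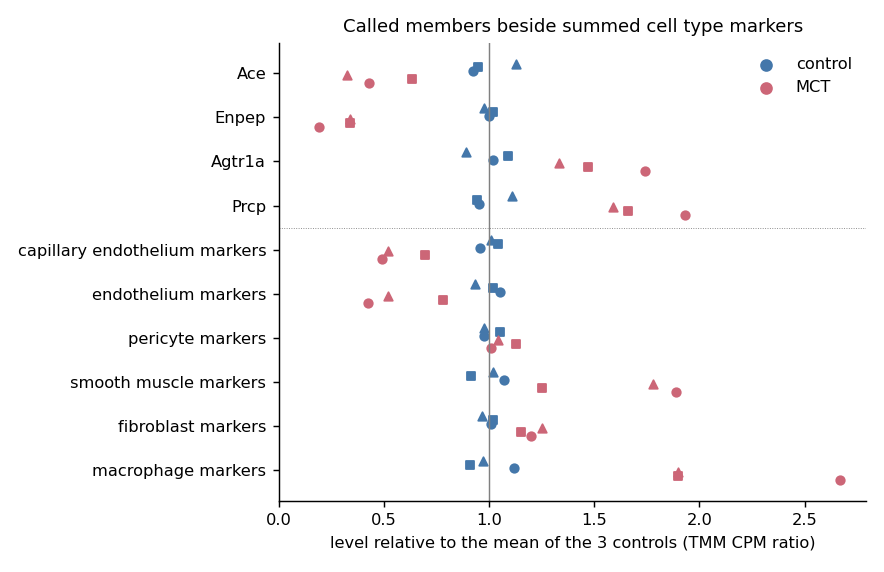
Each sample's level relative to the mean of the 3 controls, in TMM-scaled CPM, for the 4 called members (above the dotted line) and the summed markers of 6 cell types (below it); circles, squares and triangles are replicates 1, 2 and 3. In MCT samples Ace lies at 0.324 to 0.635, the endothelial sum at 0.422 to 0.779 and the capillary sum at 0.492 to 0.697. Ace is below both sums in replicates 2 and 3. In replicate 1 Ace, at 0.429, is below the capillary sum (0.492) and just above the endothelial sum (0.422). Enpep at 0.192 to 0.338 lies below both sums, and the pericyte sum stays near 1.

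The rest of the system was read from a list of 28 further genes, 22 of which were tested. Of these 6 rose, 1 fell and 15 did not pass (edgeR, adjusted p under 0.05), with a median log2 fold change of 0.12. Over all 15250 tested genes, 8.01% were called higher and 5.11% lower. Genes of protease types linked to angiotensin formation by other routes than the classic one were among the 6. Cma1, the chymase gene of mast cells, stood at 4.46, 0.894 and 1.51 CPM with saline against 241, 120 and 224 CPM after monocrotaline (log2 fold change 6.41, SE 0.52, adjusted p = 0.000654). Human chymase makes angiotensin II from angiotensin I. Whether the product of rat Cma1 does so was not tested. Rat Cma1 also has close copies, so its reads are uncertain. All 6 mast cell markers rose, Cma1 among them, from sums of 23.3 to 34.1 CPM to 384 to 1314 CPM. Ctsd, a lysosomal aspartic protease, rose 2.7-fold, from 999 ± 205 CPM (SD, n = 3) to values of 3070, 2580 and 2440 CPM (adjusted p = 0.00392). Ctsg, whose protease can also form angiotensin II, was not tested; it had 0 counts with saline and 50, 2 and 4 after monocrotaline.

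Peptidases that trim angiotensins moved both ways. Thop1, a cytosolic endopeptidase that cuts angiotensin I, rose from 12.8, 17.3 and 13.7 CPM to 30.6, 24.7 and 29.5 CPM (log2 fold change 0.95, SE 0.17, edgeR adjusted p = 0.00979). Dpp3, whose dipeptidyl peptidase degrades angiotensin II, rose 1.39-fold (adjusted p = 0.0207), and Prep, the prolyl endopeptidase gene, 1.38-fold (adjusted p = 0.0453). Mme, the gene of the membrane enzyme neprilysin, fell by 0.75 (log2; SE 0.18, adjusted p = 0.0286), from 80.6, 56.8 and 68.3 CPM to 47.9, 41.4 and 32.8 CPM. Arrb2, a beta-arrestin that binds the activated type 1 receptor, rose 1.53-fold (adjusted p = 0.0207). With 1 sample left out, Cma1, Ctsd and Thop1 kept their calls throughout. The others did not: Mme lost its call without control replicate 1, control replicate 3 or MCT replicate 3 (adjusted p = 0.0743 to 0.0912), Dpp3 without control replicate 2, control replicate 3, MCT replicate 1 or MCT replicate 3 (0.0646 to 0.0741), Arrb2 without control replicate 1, control replicate 3, MCT replicate 1 or MCT replicate 3 (0.0552 to 0.0897), and Prep without any 1 of the 6 (0.0681 to 0.153). Prep was called in 6 of 16 alternatives. The count of genes that rose was therefore 3 without control replicate 3, MCT replicate 1 or MCT replicate 3.

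ACE also degrades bradykinin, so the kinin genes were counted too. Of 7 tested, 2 rose, 1 fell and 4 did not pass, beside 8.01% of all tested genes called higher and 5.11% lower. Kng1, a kininogen gene, had 4.92, 4.62 and 9.81 CPM in controls and 79.3, 9.31 and 42.5 CPM in MCT samples, where MCT replicate 2 lay within the range of the controls (log2 fold change 2.74, SE 0.67, edgeR adjusted p = 0.0321). Kininogen genes of the rat resemble each other closely, which leaves the assignment of reads uncertain, and the call ended without any 1 of 5 samples, MCT replicate 2 being the exception (adjusted p = 0.0698 to 0.117), and with limma-voom (adjusted p = 0.136) and both FPKM fits (limma, adjusted p = 0.0693 and 0.0626). Xpnpep1, whose aminopeptidase P cuts bradykinin, rose 1.42-fold (adjusted p = 0.0191), and Cpn1, a subunit of kinin-inactivating carboxypeptidase N, fell by 0.77 (log2; adjusted p = 0.0284). The call of Xpnpep1 ended without control replicate 2, control replicate 3 or MCT replicate 1 (0.0586 to 0.086), and that of Cpn1 without any 1 control or MCT replicate 1 (0.0535 to 0.0985). Bdkrb2, a bradykinin receptor gene at 1.89 to 4.27 CPM, was not called (log2 fold change 0.42, adjusted p = 0.409).

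**Figure D5:**
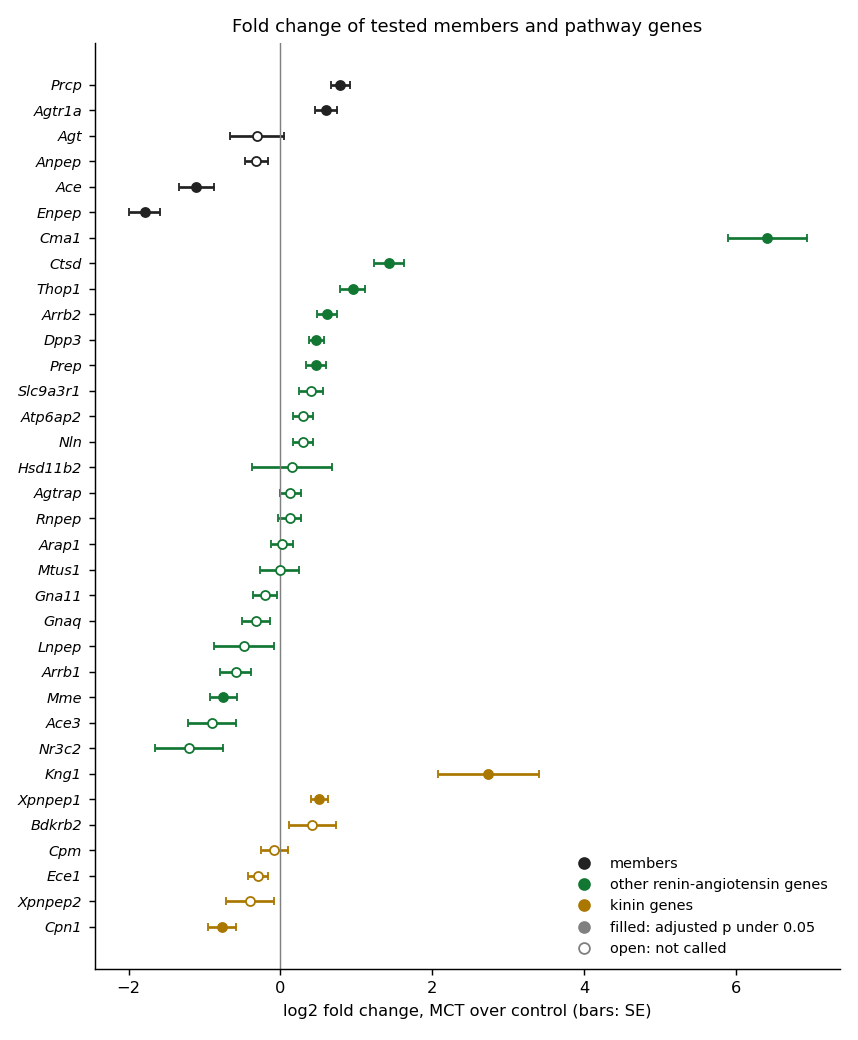
Log2 fold change, MCT over control, with its SE for the 6 tested members (black), other tested renin-angiotensin genes (green; 1 is not drawn) and 7 kinin genes (brown); filled points have an adjusted p under 0.05 in edgeR's test. Enpep at -1.79 is the lowest value shown, and Cma1 at 6.41 the highest.

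Relatives of the peptidases by protein family gave a different count for each family. Among 10 tested genes of the M1 aminopeptidases, the family of Enpep and Anpep, Enpep was the only 1 called lower and 0 were called higher by edgeR (2 at an unadjusted p under 0.05), with a median log2 fold change of 0.03. The shares over all tested genes were 5.11% lower and 8.01% higher. In the S28 family both tested genes rose, Prcp and the lysosomal dipeptidyl peptidase gene Dpp7. Dpp7 stood at 59.6, 71.9 and 65.2 CPM with saline against 179, 141 and 125 CPM after monocrotaline (log2 fold change 1.18, SE 0.16, edgeR adjusted p = 0.00336), and it was called in all 16 alternatives.

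The genes whose log2 CPM followed that of Ace most closely over the 6 samples were Ncor1 (Pearson r = 0.995), Fsd1 (0.994), Rdx (0.992), Papolg (0.991) and Gimap7 (0.989). With 6 samples in 2 groups, such values mostly reflect the difference between groups, and they are given as a description. Ncor1, a nuclear co-repressor gene, followed the order of the samples but only from 90.9 to 73 CPM, and was not called (edgeR adjusted p = 0.275). Gimap7, a GTPase gene, ranged from 73.9 to 17.4 CPM and fell by 1.35 (log2; edgeR adjusted p = 0.0133). Between members, r was 0.863 for Ace with Enpep and 0.889 for Agtr1a with Prcp. Within the MCT group Ace and Enpep did not rank the samples alike: Ace was lowest in replicate 3, where Enpep was at its highest level of the group together with replicate 2.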

How the data were processed

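PolyA RNA of 6 lung samples, 3 control and 3 MCT, had been sequenced. The deposited table gives an estimated count and an FPKM value per gene and sample, per the file headers. FPKM was computed by the authors before deposit. Bowtie2, TopHat2 2.0.3.12 and build Rnor_6.0 come from the submitters' processing notes; the counting tool, the annotation release and the strand setting were not given in the sources used here. Estimated counts as deposited were whole for 90.7% to 91.5% of values above 0 per sample and were rounded; the tests had been planned for raw counts. Groups and replicate numbers come from the titles.

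edgeR 4.0.16 (R 4.3.3, quasi-likelihood test, TMM, no covariates) was fitted to all genes that passed filterByExpr (minimum count 10, minimum total 15), with Benjamini-Hochberg adjustment over them. A gene was called at an adjusted p under 0.05, and adjusted p-values without another tool named are edgeR's. The 16 alternatives include DESeq2 1.42.0, limma-voom (limma 3.58.1), other scalings and filters, the replicate block, each sample left out and limma on log2(FPKM + 1) and log2(FPKM + 0.1). The fits were tested on simulated data. Genes named are the members, called genes of the pathway and kinin lists, and the 5 genes most like Ace with at least 5 CPM. The most abundant gene by mean CPM of each marker list set beside a member is named too. Alb, Ctsg, Bdkrb2, Marco, Calcrl, Tek, Pecam1, Vwf, Cdh5, Dpp7, Gpihbp1 and Tmem100 were chosen after their values were seen. The rule also named 2 genes of the pathway list that are not reported here; they remain in the list's counts. Of 20 marker lists, those that bear on a member are reported, and a few others are given as sums only. Members and lists were chosen with earlier results of these data known.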

Additional observations from a re-analysis of the deposited data

How the results depend on the processing

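With 1 sample left out, 481 to 1394 genes were called higher and 212 to 978 lower. Of the members 1 to 2 were called higher and 1 to 2 lower: Prcp and Enpep in every fit, Agtr1a not without any 1 control or MCT replicate 1, and Ace not without control replicate 2, control replicate 3 or MCT replicate 1. Over all genes, omitting control replicate 2 left 562 higher and 273 lower, control replicate 3 481 and 212, MCT replicate 1 712 and 343, and MCT replicate 3 735 and 324. Of the 22 pathway genes 3 to 5 were called higher and 0 to 2 lower by edgeR. The 0 arose without control replicate 3, with 3 genes lower at an unadjusted p under 0.05, and without MCT replicate 3, with 2; all 6 samples gave 1 lower by edgeR, DESeq2 and limma-voom. Why these counts moved was not tested. Each of these fits had 1 sample fewer, and the effect of that was not tested either. The alternatives with all 6 samples each called 2 members higher and 2 lower.

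The replicate number as a block called 917 genes higher and 546 lower, and 3 pathway genes higher in place of 6, the calls of Dpp3, Prep and Arrb2 ending (adjusted p = 0.0531, 0.0849 and 0.051). Same-numbered samples did not deviate together over all genes (correlations of -0.065, -0.077 and -0.03). Samples with different numbers gave -0.066 to 0.123. With 3 replicates per group, such correlations cannot show whether samples were paired or shared a batch. Replicates differed by more than sampling noise (chi-square over degrees of freedom 22.05 to 49.72). Depth limits Agtr1b, Agtr2 and Mas1, which had 2 to 56 counts in all 6 samples together.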
